A study of Homo sapiens with 12 samples.

Results

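The 34 hypoxia and glycolysis genes described here are the enzymes and transporters of glucose breakdown and the genes best known to be switched on by low oxygen. They were chosen by name, and a gene was measured where a row of the array table carried its symbol and no other. Such a row existed for 29 of the 34 genes, among 22011 rows in all, of which 14432 carried 1 symbol and stood for 14232 genes. P4HA2 had more than 1 such row, and the row with the highest mean was used. SLC2A3 and EGLN1 appeared only in rows shared with another gene. The expression of PGAM1, CA9 and ANKRD37 was not analysed here, and these genes enter only the promoter counts. The 29 genes showed no change that passed the test in any comparison of the 4 groups. In the main fit, which does not pair the arrays, the smallest unadjusted p was that of ENO1 with the PQL/Opa-deleted form against GFP. The smallest adjusted p in that fit, 0.606421, was that of BNIP3L with the hairpin against full-length MED12.

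The study measured RNA of HEK293, an established cell line of human embryonic kidney origin, on 12 arrays in 4 groups of 3 biological replicates. One group received full-length MED12, and another received MED12 from which the PQL and Opa domains at the C terminus had been removed (PQL/Opa-deleted). The third received shRNA 5, a short hairpin RNA against MED12, and the control group received GFP alone. MED12 belongs to the kinase module of Mediator, the complex between transcription factors and RNA polymerase II. Both MED12 constructs carried an N-terminal nuclear GFP and sat in pcDNA5/TO, as did the nuclear GFP of the control. The hairpin was driven by an H1 promoter in peGFP-C1, a different backbone from that of the control, and it is the 1 hairpin of the study. All cells were lipofected 24 hours after plating, taken 48 hours later and sorted for 20 minutes for viability and GFP, so every group, GFP included, is a transfected and sorted population. All 7 HEK293 and epithelial markers lay above the median row with GFP, while 4 of 5 measured blood cell markers, 2 of 4 endothelial markers and 2 of 6 fibroblast markers lay below the 25th percentile of rows. Another 3 fibroblast markers, COL1A1, COL1A2 and PDGFRB, lay above the median row.

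Glycolysis splits glucose into pyruvate in the cytosol, and lactate dehydrogenase turns pyruvate into lactate when it is not sent to the mitochondria. When oxygen is scarce, prolyl hydroxylases of the EGLN family stop marking the HIF1A protein for destruction, and HIF1A with its partner ARNT binds the core letters ACGTG or GCGTG and switches on glycolytic genes, VEGFA and many others. HIF1A is controlled mainly as a protein, so its transcript says little of its activity, and cancer-derived and transformed lines often run glycolysis with oxygen present.

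The core letters were looked for, on both strands, in RefSeq promoter windows of the GRCh38.p14 assembly that run from 250 bases before to 50 bases after an annotated start. Windows were available for 30 of the 34 genes, 56 windows in all, and 38 of them (67.9%) held a core, against 48.4% of all 35116 windows. ACGTG was found in 42.9% of the 56 windows and in 21.4% of all windows, and GCGTG in 41.1% and 36.5%. By gene, 27 of 30 had a core in at least 1 window, against 52.4% of all 27305 genes. For the 26 genes with both a window and a measured row, 35 of 52 windows (67.3%) and 24 of 26 genes had a core. The median GC content was 68.0% in the 56 windows and 58.7% in all windows, several windows of a gene can overlap, and genes with many windows have more chances to hold a core, so the shares are a description. The windows below belong to the genes with the smallest p in each comparison with GFP (ALDOA for full-length MED12, ENO1 for the PQL/Opa-deleted form, PDK1 for the hairpin) and to PGK1 and LDHA, which had the most cores in 1 window among SLC2A1, LDHA, PGK1, ENO1 and HIF1A. Single windows of HK2 and BNIP3 also held 6 cores and are not printed. The windows shown are those of ENO1 (chr1:8878637-8878936, minus strand), ALDOA (chr16:30064247-30064546, plus strand), PDK1 (chr2:172555840-172556139, plus strand), PGK1 (chrX:78103998-78104297, plus strand) and LDHA (chr11:18394313-18394612, plus strand), each read 5′ to 3′ along its gene. Capitals mark a core on either strand: ACGTG reads CACGT from the opposite strand, GCGTG reads CACGC, and the run CACGTG holds a core on each strand and counts as 2.
ENO1 promoter: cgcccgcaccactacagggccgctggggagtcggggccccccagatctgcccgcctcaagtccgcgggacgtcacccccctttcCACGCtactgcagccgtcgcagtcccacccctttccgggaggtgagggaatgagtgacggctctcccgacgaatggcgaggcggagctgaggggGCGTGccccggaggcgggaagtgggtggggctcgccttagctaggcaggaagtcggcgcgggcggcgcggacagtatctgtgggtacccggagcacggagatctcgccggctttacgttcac
ALDOA promoter: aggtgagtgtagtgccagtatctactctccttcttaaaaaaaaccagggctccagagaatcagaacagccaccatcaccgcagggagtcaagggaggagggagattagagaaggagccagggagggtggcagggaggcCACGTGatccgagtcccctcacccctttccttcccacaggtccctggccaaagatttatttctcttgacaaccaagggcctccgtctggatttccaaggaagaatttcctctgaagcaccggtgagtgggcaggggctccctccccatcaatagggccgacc
PDK1 promoter: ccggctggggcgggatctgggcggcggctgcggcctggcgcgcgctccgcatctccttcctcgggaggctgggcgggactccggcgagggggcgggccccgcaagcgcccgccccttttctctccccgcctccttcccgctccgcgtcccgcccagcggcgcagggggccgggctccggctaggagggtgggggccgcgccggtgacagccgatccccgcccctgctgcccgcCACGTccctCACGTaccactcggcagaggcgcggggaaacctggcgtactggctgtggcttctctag
PGK1 promoter: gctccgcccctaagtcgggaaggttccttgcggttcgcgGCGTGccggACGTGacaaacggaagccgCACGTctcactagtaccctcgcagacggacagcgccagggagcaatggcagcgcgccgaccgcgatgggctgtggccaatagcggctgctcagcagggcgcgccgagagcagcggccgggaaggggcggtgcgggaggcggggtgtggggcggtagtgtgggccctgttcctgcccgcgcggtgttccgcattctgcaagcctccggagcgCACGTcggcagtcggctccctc
LDHA promoter: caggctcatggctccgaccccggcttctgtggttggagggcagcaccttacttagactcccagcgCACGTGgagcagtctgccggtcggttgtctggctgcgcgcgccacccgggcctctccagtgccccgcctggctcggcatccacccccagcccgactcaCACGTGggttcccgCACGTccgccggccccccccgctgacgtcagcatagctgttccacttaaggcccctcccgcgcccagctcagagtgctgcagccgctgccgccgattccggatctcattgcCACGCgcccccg
LDHA had 6 cores in this window, PGK1 4, and ENO1, ALDOA and PDK1 2 each. For each gene the window with the most cores is shown. The windows of LDHA and ALDOA that are not shown held 1 core each, and that of PDK1 held 0. Both cores of ENO1 were GCGTG, and those of ALDOA and PDK1 were ACGTG. A match shows that the letters are there and not that HIF1A bound them in these cells.

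MED12 itself was read first as the check of the labels. Its log2 values were 10.63, 10.66 and 10.75 with full-length MED12, 8.62, 8.90 and 9.25 with the PQL/Opa-deleted form, 3.63, 3.63 and 3.74 with shRNA, and 4.03, 4.56 and 4.66 with GFP. The 4 groups did not overlap. The difference from GFP was 6.27 with full-length MED12 (limma, adjusted p = 3.67e-08) and 4.51 with the PQL/Opa-deleted form (adjusted p = 1.54e-06). With the hairpin it was -0.75, with a 95% interval from -1.18 to -0.31 (limma, unadjusted p = 0.00308). It did not pass after adjustment over all rows (adjusted p = 0.730), so the depth of the knockdown at the RNA level is uncertain.

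The arrays differed in how widely their values spread, and the mean of the 29 genes moved with that spread. The 3 narrowest were PQL/Opa-deleted replicate 1, with an SD of all log2 values of 1.45, shRNA replicate 1, with 1.34, and GFP replicate 1, with 1.40. The SD lay between 1.47 and 1.60 elsewhere. The 1.47 was that of shRNA replicate 3, close to PQL/Opa-deleted replicate 1, and this array stays in where the 3 narrow arrays are left out. The mean of the 29 genes relative to the GFP mean was 0.02, 0.09 and 0.11 in the 3 full-length arrays, -0.03, 0.09 and 0.17 in the PQL/Opa-deleted arrays, -0.24, 0.06 and -0.07 in the shRNA arrays, and -0.12, 0.00 and 0.12 in the GFP arrays. The lowest value of each of the last 3 groups came from its narrow array, and the groups overlapped. With GFP, 21 of the 29 rows lay above the median row. The part of this spread in the results was not tested, and values without the 3 narrow arrays are given for the results they bear on most. Leaving them out turned the sign of the difference from GFP for 7 of 29 genes with full-length MED12 (GPI, LDHA, HIF1A, BNIP3, P4HA1, P4HA2 and KDM3A), 2 with the PQL/Opa-deleted form (HK2 and ADM) and 6 with the hairpin (SLC2A1, PFKL, PFKFB3, BNIP3, ADM and P4HA2). It drops GFP replicate 1 but keeps full-length replicate 1. With every array scaled to 1 spread instead, the full-length differences of those 7 genes kept their sign. They were GPI 0.24, LDHA 0.05, HIF1A 0.03, BNIP3 0.29, P4HA1 0.08, P4HA2 -0.28 and KDM3A 0.01. HK2 and ADM also kept theirs with the PQL/Opa-deleted form (-0.03 and -0.02). Of the 6 with the hairpin, only ADM turned, to -0.03.

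**Figure D1:**
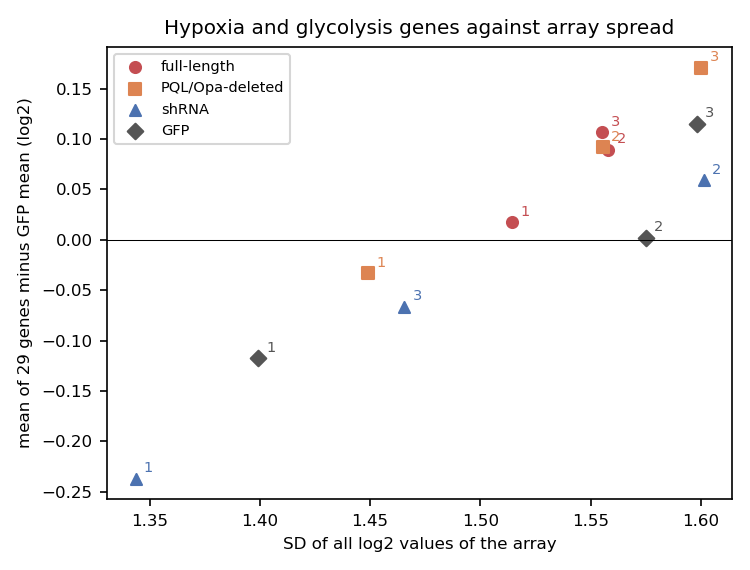
Each point is 1 of the 12 arrays. The horizontal axis is the SD of all its log2 values, the vertical axis the mean over the 29 genes of the log2 value minus the GFP mean, and the digit is the replicate number. The narrowest array, shRNA replicate 1, lies lowest at -0.24, and the arrays with an SD above 1.5 all lie at or above 0.00.

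All 29 genes had a row with a value on every array, and their values by array are plotted by role. The median SD within a group was 0.21 for the 29 genes and 0.28 for all rows. Row levels of different genes depend on their probes and are not ordered here. The row of TPI1, the triosephosphate isomerase that interconverts the products of the split sugar, lay at the 8.26th percentile of rows with GFP, and a signal above background was not established for it. The precision was enough to bound most changes. The 95% interval of the log2 difference from GFP lay within ±1, a 2-fold change, for 25 of 29 genes with full-length MED12, 23 with the PQL/Opa-deleted form and 24 with the hairpin.

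**Figure D2:**
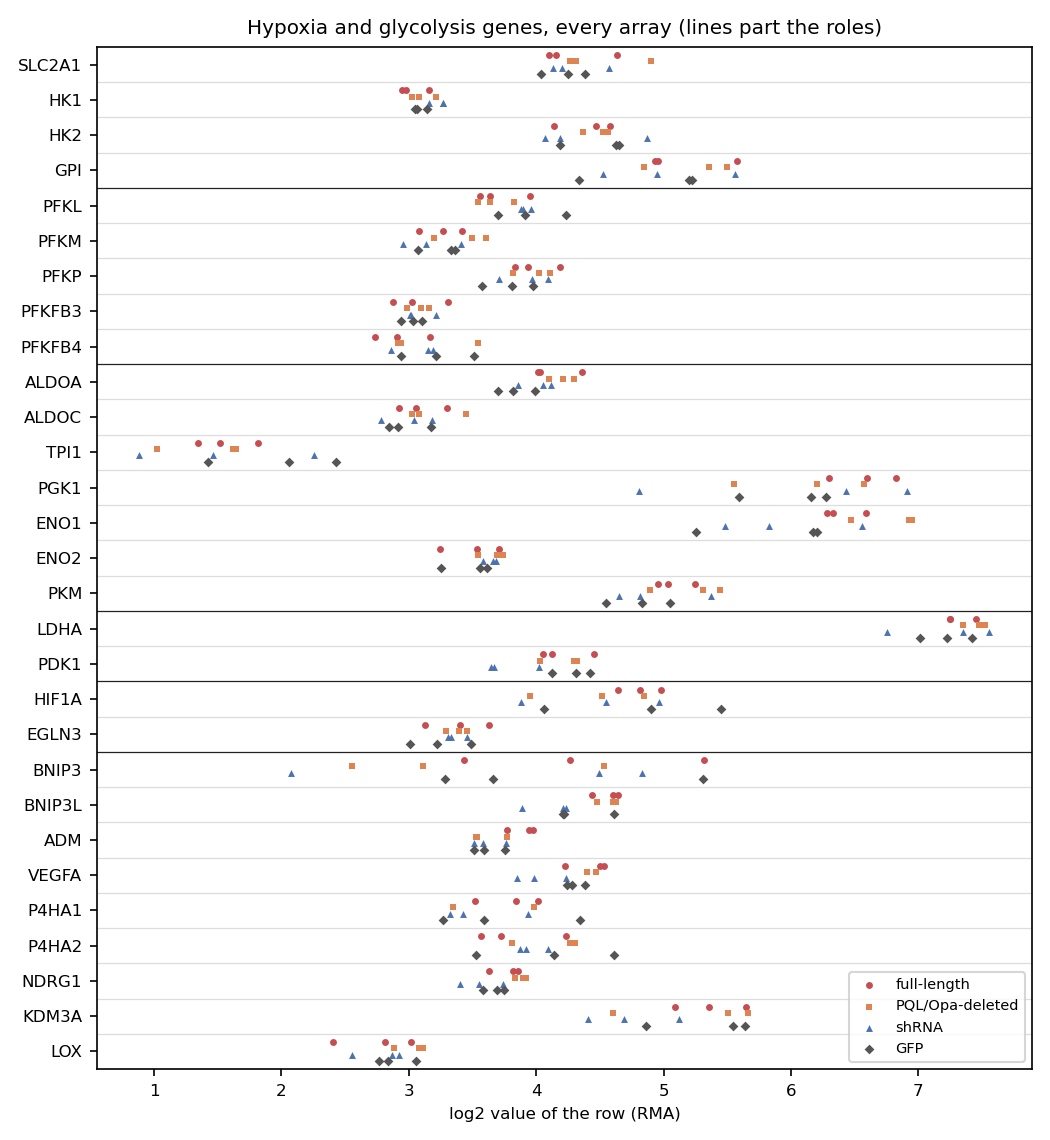
Log2 value of the row of each of the 29 genes on every array, with 3 points a group and black lines between roles, from glucose entry at the top to other hypoxia-induced genes at the bottom. Most genes have overlapping groups; BNIP3 has the widest spread and the row of TPI1 the lowest values.

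With full-length MED12, 0 of 29 genes passed the test against GFP (limma, Benjamini-Hochberg over all rows, adjusted p under 0.05), against 0.0136% of all rows. In such bulk samples fewer cells with a transcript and less of it per cell cannot be told apart. At an unadjusted p under 0.05 the count was also 0 of 29, against 2.8% of rows. This fit does not pair the arrays. With the replicate number as a block, 2 of 29 had such a p, ENO1 (limma, unadjusted p = 0.0246) and ALDOA (limma, unadjusted p = 0.0315). Neither passed after adjustment, and the share of all rows at that level was not counted with the block. The difference was above 0 for 20 genes and below 0 for 9, with a median of 0.08, against -0.01 over all rows. Without the 3 narrow arrays, of which GFP replicate 1 is the 1 in this comparison, the median was 0.00 and 15 genes were above 0. All 3 full-length arrays lay above all 3 GFP arrays for 4 of 29 genes (ALDOA, PGK1, ENO1 and ADM), or 13.8%, against 7.72% of all rows whose groups did not overlap in either direction. With the PQL/Opa-deleted form, 0 of 29 genes passed, against 0.00454% of rows. Here 2 of 29, ENO1 and ALDOA, had an unadjusted p under 0.05, or 6.90%, against 3.46% of rows. With the replicate block there were 3, ENO1 (limma, unadjusted p = 0.00115), ALDOA (limma, unadjusted p = 0.0126) and PKM (limma, unadjusted p = 0.0394). None of them passed after adjustment, and the share of all rows was again not counted. The difference was above 0 for 20 genes, with a median of 0.14, against -0.01 over all rows. Groups did not overlap for 4 genes, ENO1, ALDOA, VEGFA and NDRG1, all above GFP, or 13.8% against 7.92% of rows. With the hairpin, 0 of 29 genes passed, against 0.0681% of rows, and 1, PDK1, had an unadjusted p under 0.05, or 3.45%, against 5.04% of rows. Without the 3 narrow arrays 3 genes had one in limma's fit, PDK1 (unadjusted p = 0.0236), VEGFA (unadjusted p = 0.0325) and KDM3A (unadjusted p = 0.0131). None of them passed after adjustment, against 0.0727% of rows in that fit. The share of all rows with an unadjusted p under 0.05 was not counted there, so the 3 genes are not set against it. The difference was above 0 for 13 genes and below 0 for 16, with a median of -0.04, against 0.02 over all rows. Over only the rows above the median level, which held 21 of the 29 genes, the median of rows was -0.03 with the hairpin. In those rows it was 0.03 with full-length MED12 and 0.02 with the PQL/Opa-deleted form. Groups did not overlap for 3 genes (HK1 above, PDK1 and VEGFA below), or 10.3% against 8.56% of rows. The summed level of the 7 HEK293 and epithelial markers ran from 33.1 to 35.8 with shRNA and from 33.3 to 36.6 with GFP, and 1 of them, NEFM, was at -0.60 with the hairpin (limma, unadjusted p = 0.00371, adjusted p = 0.758). Another, KRT18, was at -0.55 with overlapping arrays (unadjusted p = 0.257). The part of these markers in the hairpin's values was not tested. The 3 comparisons share the GFP arrays, so their values are not independent. Exact permutation of 3 against 3 arrays cannot go below p = 0.1, so single genes were tested with limma's model over all rows.

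**Figure D3:**
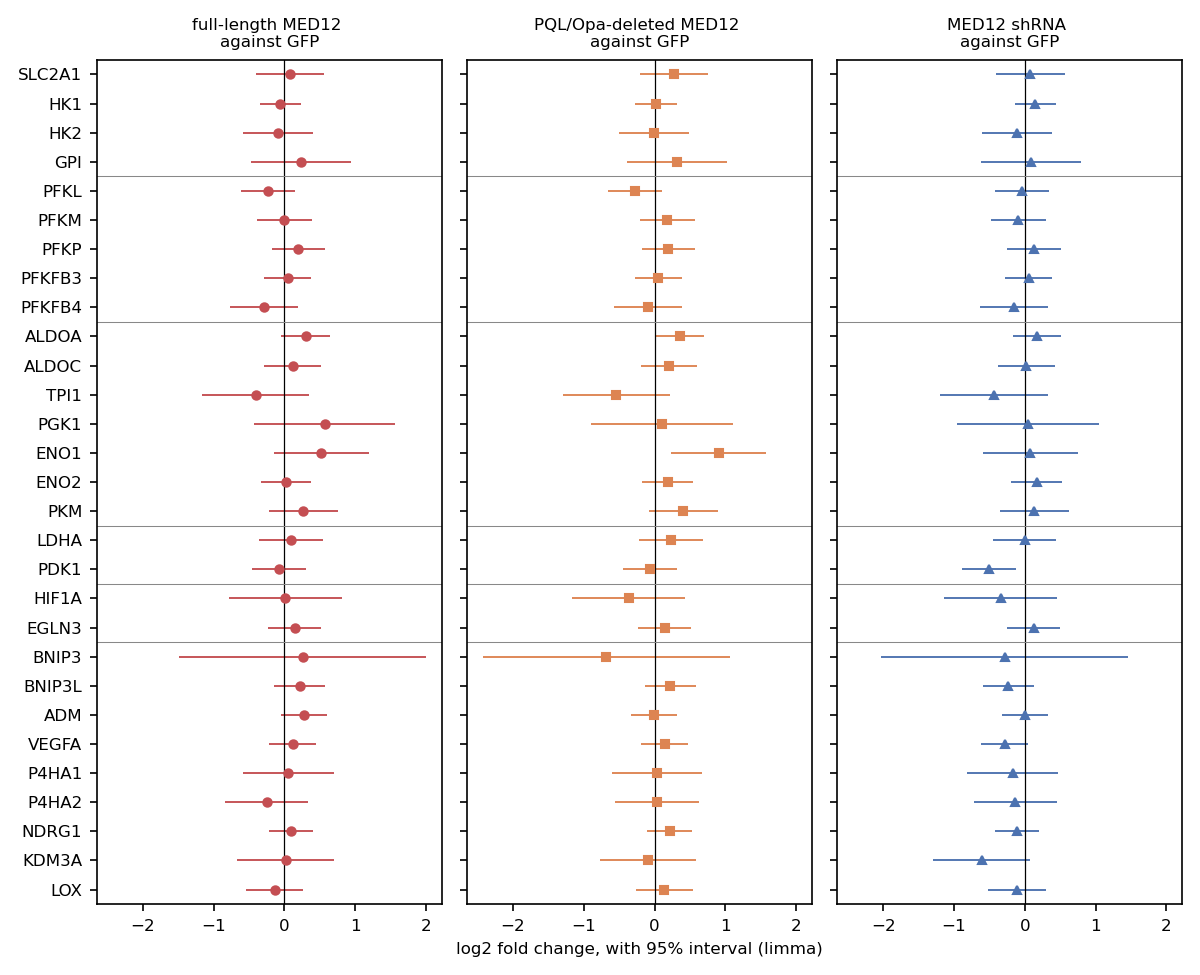
Log2 fold change against GFP (points) with its 95% interval (bars) from limma for the 29 genes in 3 panels, full-length MED12, PQL/Opa-deleted MED12 and MED12 shRNA, with grey lines between roles. The intervals of ENO1 and ALDOA with the PQL/Opa-deleted form and of PDK1 with the hairpin leave out 0, and none of these passed after adjustment over all rows.

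At the entry of glucose, 4 genes were measured. SLC2A1 is the glucose transporter GLUT1, HK1 and HK2 are hexokinases that phosphorylate glucose, and GPI turns the product into a fructose phosphate. SLC2A1 read 4.15, 4.64 and 4.10 with full-length MED12, 4.90, 4.27 and 4.31 with the PQL/Opa-deleted form, 4.57, 4.13 and 4.21 with shRNA, and 4.25, 4.38 and 4.03 with GFP. All groups of SLC2A1 overlapped, and its interval against GFP with the PQL/Opa-deleted form ran from -0.21 to 0.76. HK1 read 2.97, 2.94 and 3.16 with full-length MED12, 3.02, 3.08 and 3.21 with the PQL/Opa-deleted form, 3.27, 3.27 and 3.16 with shRNA, and 3.05, 3.07 and 3.14 with GFP. The 3 shRNA arrays lay above the 3 GFP arrays by little, a difference of 0.15 ± 0.13 (SE; limma, adjusted p = 0.999637). The differences of HK2 from GFP were -0.09, -0.0036 and -0.11 with the full-length form, the PQL/Opa-deleted form and the hairpin, and those of GPI were 0.23, 0.31 and 0.09, with none past the test. GPI with full-length MED12 was at -0.06 without the narrow arrays.

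The phosphofructokinase step, the committed and most regulated step of glycolysis, had 5 measured genes. PFKL, PFKM and PFKP are its liver, muscle and platelet subunits, and PFKFB3 and PFKFB4 make and break the sugar bisphosphate that activates it. PFKL read 3.95, 3.56 and 3.64 with full-length MED12, 3.83, 3.54 and 3.64 with the PQL/Opa-deleted form, 3.89, 3.88 and 3.96 with shRNA, and 4.23, 3.70 and 3.91 with GFP. Both constructs averaged below GFP, by -0.23 ± 0.17 for full-length MED12 (-0.09 without the narrow arrays) and -0.28 ± 0.17 for the PQL/Opa-deleted form (SE; limma, unadjusted p = 0.205 and 0.135), with overlapping arrays. PFKFB4 read 2.91, 3.16 and 2.74 with full-length MED12, 3.55, 2.94 and 2.91 with the PQL/Opa-deleted form, 3.19, 2.86 and 3.15 with shRNA, and 3.52, 3.22 and 2.94 with GFP. Its groups overlapped, and the difference of full-length MED12 from GFP was -0.29 ± 0.22. PFKM, PFKP and PFKFB3 differed from GFP by -0.09 to 0.20 over the 3 comparisons.

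Lower glycolysis, from the splitting of the sugar to pyruvate, had 7 measured genes, and 6 of the 7 were above 0 in each comparison with GFP, with medians of 0.27 for full-length MED12, 0.21 for the PQL/Opa-deleted form and 0.08 for the hairpin. None passed the test. ENO1, the widely expressed enolase that makes phosphoenolpyruvate, read 6.28, 6.59 and 6.33 with full-length MED12, 6.47, 6.95 and 6.92 with the PQL/Opa-deleted form, 5.49, 6.56 and 5.83 with shRNA, and 5.26, 6.21 and 6.17 with GFP. Every array of either construct lay above every GFP array, while shRNA overlapped GFP. The PQL/Opa-deleted form stood 0.91 ± 0.31 above GFP (SE; 95% interval 0.23 to 1.58), a 1.87-fold level, with a limma p of 0.0127 unadjusted and 0.999843 adjusted. Full-length MED12 stood 0.52 ± 0.31 above GFP (unadjusted p = 0.116), and 0.21 above it without GFP replicate 1, the array with the lowest ENO1. Without that array the difference of the PQL/Opa-deleted form was 0.59, and without all 3 narrow arrays 0.75. ALDOA, the aldolase that splits the sugar bisphosphate, read 4.02, 4.03 and 4.36 with full-length MED12, 4.10, 4.21 and 4.29 with the PQL/Opa-deleted form, 3.86, 4.12 and 4.06 with shRNA, and 3.70, 3.82 and 3.99 with GFP. Both construct groups lay above all GFP arrays, and the shRNA arrays overlapped them. The differences of ALDOA from GFP were 0.30 ± 0.16 for full-length MED12 (unadjusted p = 0.0815), 0.36 ± 0.16 for the PQL/Opa-deleted form (unadjusted p = 0.0392) and 0.17 ± 0.16 for the hairpin (SE; limma), and all 3 adjusted p-values were above 0.99.

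PKM, the pyruvate kinase that closes the pathway, read 4.95, 5.03 and 5.25 with full-length MED12, 4.89, 5.31 and 5.44 with the PQL/Opa-deleted form, 4.65, 5.37 and 4.81 with shRNA, and 4.55, 4.83 and 5.05 with GFP. All groups overlapped GFP, and the difference of the PQL/Opa-deleted form was 0.40 ± 0.22 (unadjusted p = 0.0971). PGK1, the phosphoglycerate kinase that makes the first ATP of the pathway, read 6.60, 6.82 and 6.30 with full-length MED12, 5.56, 6.21 and 6.57 with the PQL/Opa-deleted form, 4.81, 6.43 and 6.91 with shRNA, and 5.59, 6.27 and 6.15 with GFP. The full-length arrays lay just above the GFP arrays, but the spread of PGK1 within groups was wide, and the difference of 0.57 had an interval from -0.43 to 1.57. The hairpin's difference of PGK1 was 0.04, and 0.46 without the narrow arrays (unadjusted p = 0.0871). ENO2, the enolase best known from neurons, read 3.53, 3.24 and 3.71 with full-length MED12, 3.74, 3.70 and 3.54 with the PQL/Opa-deleted form, 3.68, 3.66 and 3.59 with shRNA, and 3.56, 3.25 and 3.61 with GFP. Its groups overlapped, as did those of ALDOC, the aldolase of brain, whose differences from GFP were 0.11, 0.21 and 0.02 with the full-length form, the PQL/Opa-deleted form and the hairpin. TPI1, the 1 gene of lower glycolysis below 0 in all 3 comparisons, read 1.82, 1.52 and 1.34 with full-length MED12, 1.62, 1.64 and 1.03 with the PQL/Opa-deleted form, 1.46, 0.89 and 2.26 with shRNA, and 2.43, 2.06 and 1.42 with GFP. Its groups overlapped, and no direction is read from a row this dim.

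At the fate of pyruvate, PDK1 was the gene nearest to a change with the hairpin. PDK1 phosphorylates and so shuts pyruvate dehydrogenase, which keeps pyruvate out of the mitochondria. It read 4.06, 4.45 and 4.13 with full-length MED12, 4.03, 4.32 and 4.30 with the PQL/Opa-deleted form, 3.67, 4.02 and 3.64 with shRNA, and 4.12, 4.42 and 4.31 with GFP. All shRNA arrays lay below every array of the other 3 groups, which overlapped each other. The hairpin stood at -0.51 ± 0.17 against GFP (SE; 95% interval -0.89 to -0.12), 0.704 of the GFP level, with a limma p of 0.0139 unadjusted and 0.909698 adjusted. The difference was -0.53 without the 3 narrow arrays. LDHA, the lactate dehydrogenase subunit that makes lactate, read 7.25, 7.25 and 7.45 with full-length MED12, 7.35, 7.52 and 7.47 with the PQL/Opa-deleted form, 7.35, 7.56 and 6.75 with shRNA, and 7.01, 7.42 and 7.23 with GFP. Its groups overlapped, and the hairpin's difference of -0.00041 had an interval from -0.45 to 0.45.

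Of the genes of oxygen sensing and HIF, HIF1A read 4.65, 4.82 and 4.98 with full-length MED12, 3.95, 4.52 and 4.84 with the PQL/Opa-deleted form, 3.88, 4.96 and 4.55 with shRNA, and 4.06, 4.90 and 5.45 with GFP. The GFP arrays alone spanned 4.06 to 5.45, and all groups overlapped. The differences of HIF1A from GFP were 0.01, -0.37 and -0.34 with the full-length form, the PQL/Opa-deleted form and the hairpin, each with an SE of 0.36. Without the narrow arrays they were -0.36, -0.50 and -0.42 (unadjusted p = 0.135, 0.0708 and 0.114). EGLN3, a prolyl hydroxylase that is itself induced by HIF, stood between 0.12 and 0.15 above GFP in the 3 comparisons, with overlapping arrays. The row shared by EGLN1 and SCAND2P differed from GFP by 0.08 to 0.10, and the 2 rows shared by SLC2A3 and SLC2A14 by -0.03 to 0.18, with none past the test.

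The other hypoxia-induced genes had 9 measured members, of which 7 were above 0 with full-length MED12 (median 0.09), 6 with the PQL/Opa-deleted form (median 0.03) and 1 with the hairpin (median -0.17). VEGFA, the growth factor that draws in blood vessels, read 4.23, 4.53 and 4.50 with full-length MED12, 4.47, 4.47 and 4.40 with the PQL/Opa-deleted form, 4.24, 3.85 and 3.98 with shRNA, and 4.25, 4.38 and 4.28 with GFP. The shRNA arrays lay below all GFP arrays, narrowly in replicate 1, and the difference was -0.28 ± 0.15 (SE; limma, unadjusted p = 0.0879, adjusted p = 0.99914). It was -0.42 without the narrow arrays. KDM3A, a histone demethylase induced by HIF, read 5.09, 5.65 and 5.36 with full-length MED12, 4.61, 5.66 and 5.50 with the PQL/Opa-deleted form, 4.41, 5.12 and 4.69 with shRNA, and 4.86, 5.55 and 5.64 with GFP. The hairpin averaged 0.61 lower than GFP, a difference of -0.61 ± 0.31 (SE; unadjusted p = 0.0752), with 1 shRNA array above the lowest GFP array, and was -0.69 without the narrow arrays. ADM, the vessel-relaxing peptide adrenomedullin, read 3.98, 3.94 and 3.77 with full-length MED12, 3.54, 3.53 and 3.77 with the PQL/Opa-deleted form, 3.77, 3.58 and 3.51 with shRNA, and 3.76, 3.59 and 3.51 with GFP. The full-length arrays of ADM lay above all GFP arrays, with a difference of 0.28 ± 0.15 (SE; unadjusted p = 0.0863), while the other groups overlapped GFP.

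BNIP3, a receptor that marks mitochondria for removal, had the widest spread of the 29 genes, with an SD within groups of 1.16. It read 4.27, 3.43 and 5.32 with full-length MED12, 2.55, 3.11 and 4.53 with the PQL/Opa-deleted form, 2.08, 4.49 and 4.83 with shRNA, and 3.28, 3.66 and 5.31 with GFP. Replicate 3 was the highest in all 4 groups. Its interval against GFP ran from -1.49 to 2.00 for full-length MED12, from -2.43 to 1.06 for the PQL/Opa-deleted form and from -2.03 to 1.46 for the hairpin in the unpaired fit. Array by array, the PQL/Opa-deleted form differed from the GFP array of the same number by -0.73, -0.55 and -0.78. With the replicate number as a block its interval was -1.72 to 0.35 (unadjusted p = 0.170), which still reaches past a 2-fold decrease. Its relative BNIP3L read 4.64, 4.60 and 4.44 with full-length MED12, 4.60, 4.62 and 4.48 with the PQL/Opa-deleted form, 4.21, 4.24 and 3.89 with shRNA, and 4.21, 4.22 and 4.61 with GFP. The shRNA arrays of BNIP3L lay below every array of both constructs and overlapped GFP. NDRG1, a stress-induced gene of differentiation, differed from GFP by 0.09, 0.21 and -0.11 with the full-length form, the PQL/Opa-deleted form and the hairpin, and the PQL/Opa-deleted arrays lay above all GFP arrays. P4HA1 and P4HA2, subunits of the enzyme that hydroxylates collagen, and LOX, which cross-links collagen, differed from GFP by -0.25 to 0.14 in the 3 comparisons, with overlapping arrays.

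**Figure D4:**
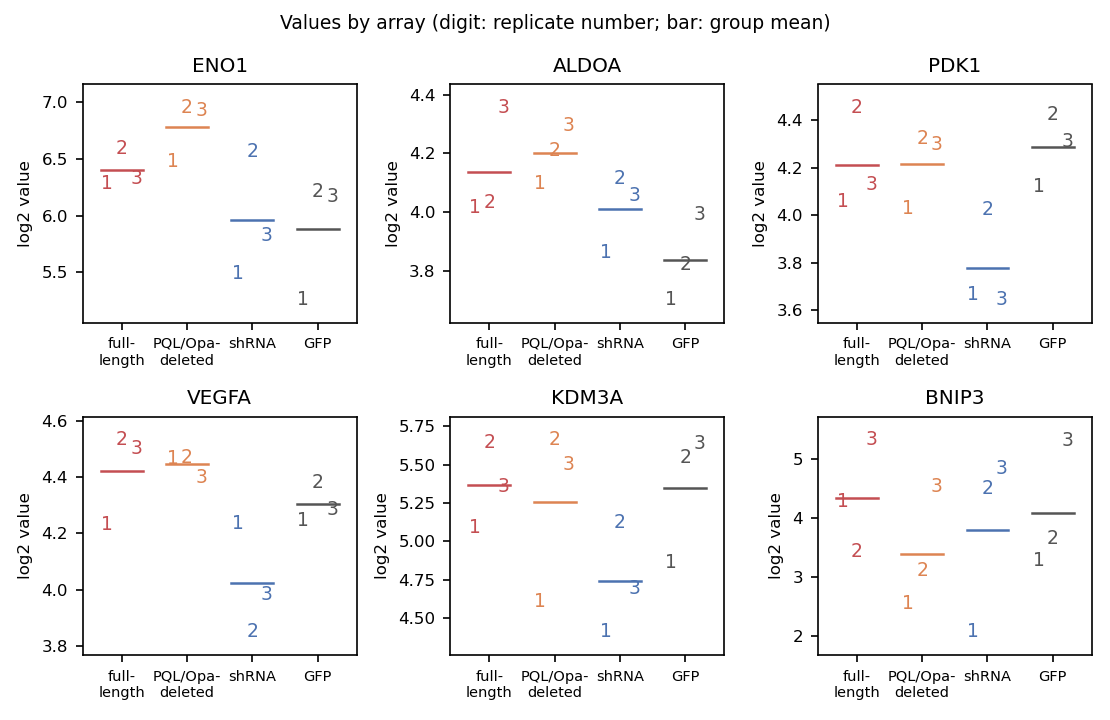
Log2 values of ENO1, ALDOA, PDK1, VEGFA, KDM3A and BNIP3 on each array, by group, with the replicate number as the symbol and the group mean as a bar; each panel has its own axis. ENO1 and ALDOA lie above GFP in all arrays of both constructs, PDK1 and VEGFA below GFP in all shRNA arrays, and replicate 3 of BNIP3 is the highest in every group.

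Comparisons that leave out the GFP arrays ask whether the groups differ from each other. Full-length MED12 against the PQL/Opa-deleted form gave 0 of 29 genes past the test, against 0.00454% of rows, and 0 of 29 at an unadjusted p under 0.05, against 1.9% of rows. The smallest p was that of ADM, 0.28 higher with full-length MED12 (unadjusted p = 0.0804). The difference of ENO1 between both constructs, full-length minus PQL/Opa-deleted, was -0.38, with full-length arrays overlapping the PQL/Opa-deleted ones. The hairpin against full-length MED12 gave 0 of 29 genes past the test, against 0.104% of rows. At an unadjusted p under 0.05 it gave 3 genes, PDK1, BNIP3L and VEGFA, all lower with the hairpin, or 10.3% against 7.17% of rows. Their differences were -0.43, -0.45 and -0.40, with limma's adjusted p between 0.606421 and 0.648912. The hairpin against the PQL/Opa-deleted form gave 0 of 29 past the test, against 0.0318% of rows. Here 5 genes, ENO1, PDK1, BNIP3L, VEGFA and NDRG1, all lower with the hairpin, had an unadjusted p under 0.05, or 17.2% against 7.16% of rows. Their differences were -0.83, -0.44, -0.46, -0.42 and -0.32, with adjusted p between 0.666216 and 0.691189. The shRNA arrays lay below all PQL/Opa-deleted arrays for PDK1, BNIP3L, VEGFA and NDRG1 but not for ENO1. They lay above all of them for PFKL. Groups thus did not overlap for 5 of 29 genes, or 17.2%, against 10.9% of all rows. Both comparisons share the shRNA arrays. A test for any difference among the 4 groups (limma's moderated F test) passed for 0 of 29 genes, against 0.0863% of rows, and 1 gene, ENO1, had an unadjusted F p under 0.05 (0.0428), or 3.45% against 4.62% of rows.

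For many of these genes the replicate number carried as much of the variation as the group did. The share of the sum of squares over the 12 arrays that lay between the 3 replicate numbers had a median of 33.9% for the 29 genes and 31.6% for all rows, and the share between the 4 groups a median of 22.3% for the 29 genes and 22.6% for all rows. The number share was the larger for 17 of 29 genes (58.6%), against 57.8% of all rows, a share near that of the whole table. The number share was 65.3% for BNIP3, 65.1% for PFKP and 62.7% for HIF1A. HIF1A was lowest in replicate 1 in all 4 groups, with values from 3.88 to 4.65 in replicate 1, 4.52 to 4.96 in replicate 2 and 4.55 to 5.45 in replicate 3. PFKM, PFKP, ALDOA, ENO1, PKM, P4HA1 and KDM3A were also lowest in replicate 1 in all 4 groups. VEGFA and BNIP3L had number shares of 0.135% and 1.74%, and group shares of 70.0% and 65.8%. Replicate 1 of 3 groups are the narrow arrays, and the labels do not say what a replicate number marks.

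Genes around the pathway were counted in the same fit, and none of the measured genes of 4 further lists passed in a comparison with GFP. Other genes of glycolysis and of lactate and pyruvate handling had 23 of 29 measured, with medians of 0.05, 0.00 and 0.05 for the full-length form, the PQL/Opa-deleted form and the hairpin. In this list the hairpin had 2 of 23 genes with an unadjusted p under 0.05 against GFP (8.70%, against 5.04% of rows), PDP1, the phosphatase that reactivates pyruvate dehydrogenase, at -0.66 ± 0.25, and MPC1, a subunit of the mitochondrial pyruvate carrier, at -0.43 ± 0.18 (SE; limma, adjusted p = 0.957949 and 0.981903). MPC1 was lower than GFP on every array of all 3 other groups. The hexokinase-related HKDC1 was 0.44 higher with the hairpin than with the PQL/Opa-deleted form (unadjusted p = 0.0497), and PDP1 was at -0.64 in the same comparison (unadjusted p = 0.0257). The pentose phosphate pathway, which branches off at the first sugar phosphate, had 5 of 7 measured, and RPIA, an isomerase of ribose phosphate, was at -0.36 ± 0.16 with the hairpin against GFP (SE; limma, unadjusted p = 0.0410, adjusted p = 0.982772). HIF partners and regulators such as ARNT and VHL had 13 of 16 measured. Of these, 0 had an unadjusted p under 0.05 in any of the 6 comparisons, against 1.9% to 7.17% of all rows.

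Further hypoxia-induced genes had 28 of 32 measured, with medians of 0.09, 0.03 and -0.04 against GFP for the full-length form, the PQL/Opa-deleted form and the hairpin. DDIT4, an inhibitor of the growth kinase mTOR that stress and low oxygen induce, averaged 4.96 ± 0.11 with full-length MED12, 4.18 ± 0.05 with the PQL/Opa-deleted form, 3.68 ± 0.50 with shRNA and 4.15 ± 0.44 with GFP (SD, n = 3 each). All full-length arrays lay above all arrays of GFP, of the PQL/Opa-deleted form and of the hairpin. DDIT4 stood 0.81 ± 0.26 above GFP (SE; limma, unadjusted p = 0.00910, adjusted p = 0.999988) and 0.78 above the PQL/Opa-deleted form (unadjusted p = 0.0113) with full-length MED12. With the hairpin it was 1.28 below full-length MED12, a difference of -1.28 (unadjusted p = 0.000393, adjusted p = 0.170). CXCR4, a chemokine receptor, and TXNIP, which binds thioredoxin and curbs glucose uptake, were at -0.55 and -0.52 with the hairpin against full-length MED12 (unadjusted p = 0.0439 and 0.0495), with overlapping arrays. TXNIP was also at -0.58 with the hairpin against the PQL/Opa-deleted form (unadjusted p = 0.0327).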

How the data were processed

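Gene expression was measured in 12 samples, 3 biological replicates in each of 4 groups taken from the sample titles, on 1-colour arrays after RNA amplification and biotin labelling, per the labels. The authors deposited 1 log2 value per transcript cluster (row) and array. Per the submitters' processing notes, Partek and RMA were used, with genome build hg18. Versions, background option and filters: not given in the sources used here. RMA works on all arrays together and narrows the range of dim rows, so fold changes of dim genes can be understated. The deposited log2 values were used with no further normalization or filter, and 0 columns of values were left out.

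A gene was measured by its brightest row among those with that 1 symbol in the platform annotation. All 29 Entrez identifiers of the members matched a current RefSeq table, with 0 renamed. A model of 4 group means was fitted to all 22011 rows with limma 3.58.1 in R 4.3.3 (lmFit, eBayes without trend, 8 residual and 3.52 prior degrees of freedom). Tests were two-sided, and p-values were adjusted by Benjamini-Hochberg over the whole table with 0.05 as the threshold. The fit was run on simulated data with independent arrays and changes larger than any difference of the 29 genes from GFP. That run does not show how well changes of the size seen here would be found. Every adjusted p is limma's. The p-values rest on the spread between arrays within groups, pooled over the 4 groups and moderated by limma over all rows. Precision is limited by the number of arrays, with a median standard error of a log2 difference from GFP of 0.23 over all rows. The members, their roles and the further lists were chosen with earlier results of these data known. Array values are given for the 3 genes with the smallest p per direction in each comparison with GFP, for HIF1A, VEGFA, SLC2A1, LDHA, PGK1 and ENO1, and for MED12; BNIP3 and BNIP3L were added after their values were seen. The labels number the replicates. Same-numbered arrays deviated together from their group means, with every correlation over 0.1, between GFP and full-length MED12 (0.101 to 0.229) and between GFP and the PQL/Opa-deleted form (0.149 to 0.472), so the numbers were taken to pair these groups, on the data alone. Other groups were not so paired. The p-values and intervals of all comparisons are nevertheless those of the unpaired fit, unless the replicate block or another fit is named. Between GFP and shRNA the correlations were 0.464, 0.269 and 0.0223, the last of them under 0.1, so the split rests on that cut. Alternatives were other groups in the fit, scalings, filters, weights, the replicate block and leaving out arrays.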

Additional observations from a re-analysis of the deposited data

How the results depend on the processing

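With 21 alternative settings, 12 of which left out 1 array each, the count of genes past the test was 0 in all 7 tests except with array weights. Those weights gave shRNA replicate 3 a weight of 8.77 and 5702 rows past the test for the hairpin against GFP. With them 7 of 29 genes passed (24.1%, against 25.9% of rows), all lower in the hairpin: HK2, LDHA, PDK1, BNIP3L, VEGFA, NDRG1 and KDM3A. For the hairpin 8 genes passed against full-length MED12 (27.6%, against 15.4% of rows) and 12 against the PQL/Opa-deleted form (41.4%, against 28% of rows), and 8 in the F test (27.6%, against 28.9%). MED12 with the hairpin was then at -0.81 (adjusted p = 0.00190). The cause was not tested, and 1 array carries most of the hairpin's mean under these weights. The median difference of the 29 genes from GFP ranged, with 1 array left out, from 0.00 to 0.15 for full-length MED12, from 0.08 to 0.14 for the PQL/Opa-deleted form and from -0.147 to -0.0177 for the hairpin, with the lowest value of the hairpin without shRNA replicate 2. Of the 29 genes, 15, 20 and 12 kept the sign of their difference under every setting that held them, for full-length MED12, the PQL/Opa-deleted form and the hairpin; the filter on rows above the median level held 21 of them. With the replicate block, 0 genes passed in any comparison, so the pairing changed no call. The unadjusted p in that limma fit was under 0.05 for 2 genes with full-length MED12 against GFP, ENO1 (0.0246) and ALDOA (0.0315). With the PQL/Opa-deleted form there were 3, ENO1 (0.00115), ALDOA (0.0126) and PKM (0.0394). The hairpin had 2, PDK1 (0.00204) and KDM3A (0.00406). The share of all rows at that level was not counted in that fit. In that fit the adjusted p of ENO1 with the PQL/Opa-deleted form against GFP was 0.490.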
